A study of Homo sapiens with 12 samples.

Results

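Of 57500 genes in the count table of this series, 10 belong to the cytosolic DNA and RNA sensing machinery considered here: CGAS, STING1, TBK1, IRF3, IFIH1, RIGI, MAVS, TREX1, SAMHD1 and ZBP1. They were chosen by name, with earlier symbols MB21D1, TMEM173 and DDX58 accepted, and all 10 were found by Ensembl identifier. Enough counts for a test were present for 9, and TREX1 had no count in any library. The cells were OE33, an established human esophageal adenocarcinoma line of epithelial type. RNA sequencing of polyadenylated RNA covered 12 libraries in 4 groups of 3, described by the study as independent biological replicates. Parental cells were untreated. The rABS cells were survivors of 15 days of exposure for 20 minutes a day to a bile salt mixture at 200 µM and pH 5.5. The rABS+shCtrl group (below shCtrl) consisted of rABS cells stably transduced with a non-targeting short hairpin RNA, and the rABS+shAPE1 group (below shAPE1) of rABS cells carrying a hairpin against APE1, the repair endonuclease encoded by APEX1. All 3 rABS-derived groups therefore shared the exposure, and no Parental cells with a hairpin and no Parental cells given a mock exposure were included. Whether the transduced cells were pools or clones is not given in the sources used here.

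Cells recognise misplaced nucleic acids with separate DNA and RNA sensors. The enzyme cGAS, encoded by CGAS, binds double-stranded DNA and makes the cyclic dinucleotide cGAMP, which activates STING on the endoplasmic reticulum. RIG-I (RIGI) and MDA5 (IFIH1) bind viral-like RNA and signal through MAVS on mitochondria. Both routes reach the kinase TBK1 and the transcription factor IRF3, which switches on interferon and antiviral genes. TREX1 and SAMHD1 limit the supply of DNA ligands, TREX1 by degrading cytosolic DNA and SAMHD1 by hydrolysing deoxynucleotides and acting at stalled replication forks, and ZBP1 senses Z-form nucleic acids and can start necroptosis.

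Between 15736087 and 23010377 counts fell on each library, and the test covered 15805 genes. Levels are in CPM, a gene's count relative to the scaled size of its library. Adjusted p-values are from edgeR's quasi-likelihood test with Benjamini-Hochberg adjustment over all genes tested, "called" means an adjusted p under 0.05, and ± after a log2 difference is its standard error. The target of the knockdown, APEX1, was at 62.0, 56.5 and 60.9 CPM in shCtrl and at 4.42, 4.50 and 5.88 CPM in shAPE1 (log2 -3.61 ± 0.105, adjusted p = 3.75e-22). The 7 epithelial markers summed to between 11640 and 19230 CPM in every library. Leukocyte markers summed to between 6.64 and 12.4 CPM, with CD3E and NKG7 at or near 0 in each group. CD14, LYZ and CD68 made up most of this sum. In Parental, rABS, shCtrl and shAPE1, mean CD14 was 2.85, 5.75, 4.05 and 5.00 CPM. In the same order LYZ was at 1.81, 0.952, 1.70 and 3.39 CPM, and CD68 at 2.31, 1.77, 1.45 and 1.51. The fibroblast list was highest in Parental, at 22.5 to 29.5 CPM against 3.47 to 9.55 CPM in the other groups, and nearly all of it was COL1A1. COL1A2, COL3A1, DCN and LUM were at or near 0 throughout. A change in all cells and a change in the share of cells expressing a gene cannot be told apart in these bulk libraries.

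Scaled by exon length, MAVS was the most abundant of the 9 measured sensing genes in all 4 groups and ZBP1 and STING1 the least. In Parental cells the length-scaled levels were 29.4 CPM per kb for MAVS, 14.2 for CGAS, 10.5 for IRF3, 6.62 for RIGI, 6.58 for TBK1, 3.42 for both IFIH1 and SAMHD1, 0.224 for STING1 and 0.201 for ZBP1. In the DNA route the sensor CGAS was thus abundant and the receptor STING1 sparse. The order shifted most through SAMHD1, whose length-scaled level was 9.19 CPM per kb in rABS, 7.20 in shCtrl and 10.6 in shAPE1, above RIGI and TBK1 in all 3 of these groups. The ratio of the highest to the lowest group mean was 3.10 for SAMHD1, 2.76 for STING1 and 2.71 for ZBP1, between 1.61 and 1.64 for MAVS and CGAS, and 1.12 for RIGI.

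**Figure D1:**
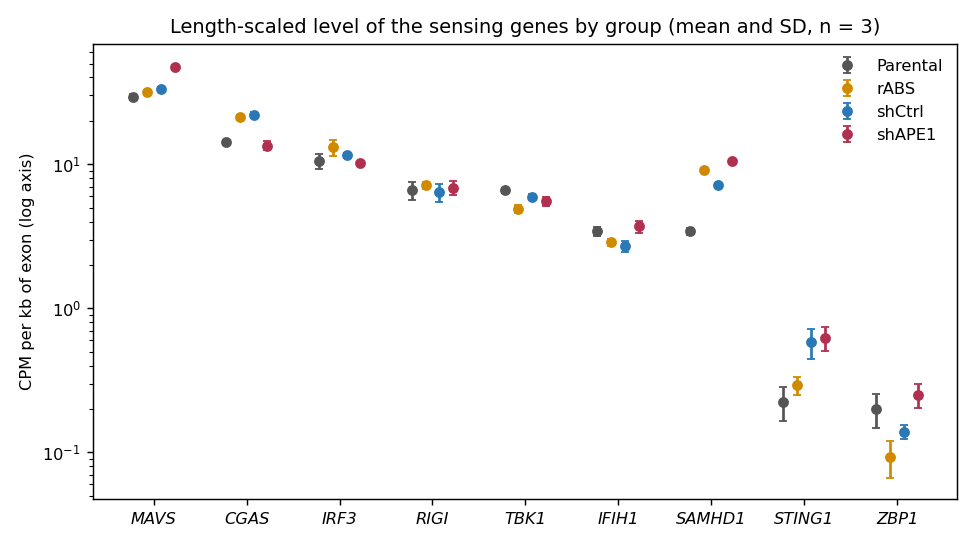
Length-scaled level (CPM per kb of exon, log axis) of the 9 measured sensing genes, ordered by their level in Parental. Points are group means and bars the SD of 3 libraries. MAVS is highest in every group, STING1 and ZBP1 lie below 1 CPM per kb, and SAMHD1 moves from 3.42 in Parental to 10.6 in shAPE1.

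The comparison of rABS with Parental asked what differed in cells that had survived repeated acidified bile salts. Of the 9 sensing genes, CGAS, IRF3 and SAMHD1 were higher and TBK1 and ZBP1 lower, while STING1, IFIH1, RIGI and MAVS were not called. Among all genes tested 29.9% were called higher and 29.9% lower, so 3 and 2 of 9 lie near what any gene showed in this comparison. SAMHD1 and ZBP1 changed at least 2-fold, which 19.4% of all genes did. The median log2 difference was 0.11 over the 9 genes and -0.01 over all genes.

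The comparison of shAPE1 with shCtrl asked what differed when APE1 was reduced in adapted cells. IFIH1, MAVS and SAMHD1 were higher, CGAS was lower, and STING1, TBK1, IRF3, RIGI and ZBP1 were not called. Over all genes 17.8% were called higher and 18.8% lower. None of the 9 reached 2-fold in this comparison, against 4.42% of all genes. The median log2 difference was 0.11, against -0.02 for all genes.

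The comparison of shCtrl with rABS addressed what came with transduction and the time that followed it. STING1 and TBK1 were higher, SAMHD1 was lower, and the other 6 were not called. The background was 17.9% of genes higher and 18.6% lower, with 4.85% called at 2-fold or more and none of the sensing genes among them. This comparison shares the rABS libraries with the first and the shCtrl libraries with the second. The first and the second comparison share no library.

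**Figure D2:**
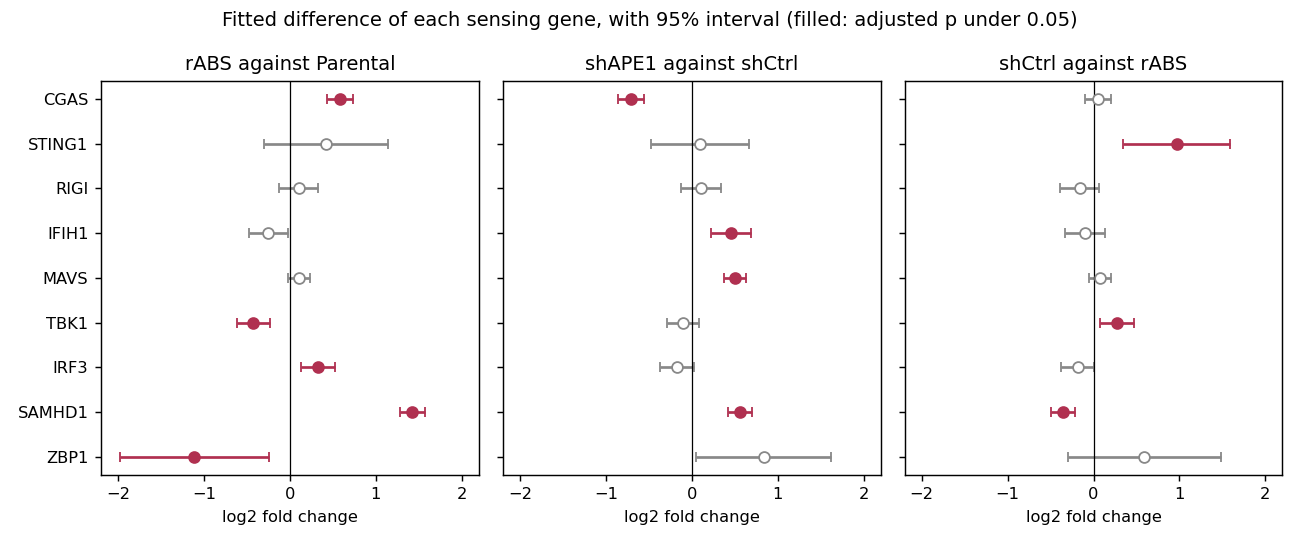
Fitted log2 difference of each of the 9 tested sensing genes in 3 comparisons, with 95% intervals from the fit. Filled points have an adjusted p under 0.05. CGAS lies above 0 in rABS against Parental and below 0 in shAPE1 against shCtrl, and SAMHD1 lies above 0 in both.

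The remaining pairs of groups were used to order the levels. Against Parental, shCtrl had 4 of the 9 genes higher (CGAS, STING1, MAVS, SAMHD1) and 1 lower (IFIH1), with 27% and 26.1% of all genes called in those directions. In shAPE1 against Parental 3 were higher (STING1, MAVS, SAMHD1) and 1 lower (TBK1), beside 26.2% and 27.5% of all genes. In shAPE1 against rABS 5 were higher (STING1, IFIH1, MAVS, SAMHD1, ZBP1) and 2 lower (CGAS, IRF3), beside 23.8% and 26.2%.

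CGAS (ENSG00000164430, chromosome 6, 73413515 to 73452276, minus strand, GRCh38) encodes the DNA sensor itself. It read 59.1, 59.5 and 58.2 CPM in Parental cells against 91.8, 85.0 and 88.0 CPM in rABS cells. In shCtrl the libraries were at 94.7, 86.5 and 92.9 CPM and in shAPE1 at 58.1, 51.4 and 58.1. The 6 rABS and shCtrl libraries formed a high set and the 6 Parental and shAPE1 libraries a low set, with no overlap between the sets. CGAS rose between Parental and rABS by log2 0.58 ± 0.08 (1.5-fold, adjusted p = 4.19e-08). It fell by 0.71 ± 0.07 on the log2 scale between shCtrl and shAPE1 (1.63-fold, adjusted p = 3.21e-09). The level in shAPE1 did not pass the test against Parental (log2 -0.08, 95% interval -0.23 to 0.08, adjusted p = 0.411), nor did shCtrl against rABS (log2 0.05, -0.10 to 0.20, adjusted p = 0.634). The order of means was shAPE1, Parental, rABS, shCtrl, and among neighbours the step from Parental to rABS was the one that passed. The exact permutation test gave 0.1 for both called differences, the smallest p that 20 arrangements of 3 against 3 libraries allow. Of the exon bases of CGAS, 4.3% overlap DDX43 on the opposite strand. DDX43 was at 19.2, 12.3, 15.4 and 12.2 CPM in Parental, rABS, shCtrl and shAPE1, and its part in the CGAS counts was not tested.

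STING1 (ENSG00000184584, chromosome 5, 139475534 to 139482935, minus strand) encodes the cGAMP receptor and was near the limit of measurement, with 44 counts over the 3 Parental and 62 over the 3 rABS libraries. The Parental libraries read 1.04, 0.608 and 0.944 CPM and the rABS libraries 1.02, 1.05 and 1.31, and these ranges overlap. After transduction the values were 2.17, 1.74 and 2.79 CPM in shCtrl and 1.91, 2.81 and 2.44 in shAPE1. Every transduced library lay above every untransduced one, while the shCtrl and shAPE1 ranges overlapped. STING1 rose by log2 0.97 ± 0.30 between rABS and shCtrl (adjusted p = 0.0125) and was higher in shAPE1 than in rABS by 1.07 (adjusted p = 0.00435). The first of these was not called without the third shCtrl library (log2 0.78, adjusted p = 0.0869). Between shAPE1 and shCtrl the difference was 0.10, with a 95% interval from -0.47 to 0.67 (adjusted p = 0.828), and between rABS and Parental it was 0.42 (-0.30 to 1.14, adjusted p = 0.314). The leukocyte markers summed to 6.64 to 9.27 CPM in Parental, 7.29 to 10.1 in rABS, 7.22 to 8.61 in shCtrl and 8.94 to 12.4 in shAPE1. The fibroblast list summed to 22.5 to 29.5, 3.47 to 4.19, 9.11 to 9.55 and 7.33 to 8.38 CPM in the same order, nearly all of it COL1A1, with LUM at 0 in all 4 groups. The part of either list in the STING1 level was not tested.

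RIGI and IFIH1 encode the RNA helicases RIG-I and MDA5, whose genes are themselves known to respond to interferon. Their promoters are shown because IFIH1 passed the test in shAPE1 against shCtrl and its relative RIGI did not, and that of SAMHD1 because it is the sensing gene with the widest range of levels. Each sequence is from RefSeq (GRCh38.p14), runs 5′ to 3′ on the gene's strand from 250 bases before to 50 after the annotated start, and has in capitals the matches to the IRF core AANNGAAA, to the longer interferon-stimulated response element GAAANNGAAA, which contains the core, or to the GAS element TTCNNNGAA, each on either strand.
IFIH1, chr2:162318635-162318934, minus strand: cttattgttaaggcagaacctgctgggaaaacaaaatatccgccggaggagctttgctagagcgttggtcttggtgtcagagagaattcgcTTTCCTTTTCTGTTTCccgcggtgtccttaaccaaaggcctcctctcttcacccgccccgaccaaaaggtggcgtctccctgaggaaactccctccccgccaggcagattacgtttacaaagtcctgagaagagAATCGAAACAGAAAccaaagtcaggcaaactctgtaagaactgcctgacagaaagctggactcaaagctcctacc
RIGI, chr9:32526147-32526446, minus strand: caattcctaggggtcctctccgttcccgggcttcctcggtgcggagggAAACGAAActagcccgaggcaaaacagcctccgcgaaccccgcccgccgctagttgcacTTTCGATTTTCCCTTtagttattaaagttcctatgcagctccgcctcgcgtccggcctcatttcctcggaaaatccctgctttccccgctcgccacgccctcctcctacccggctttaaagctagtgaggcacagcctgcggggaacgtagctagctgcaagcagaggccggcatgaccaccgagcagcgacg
SAMHD1, chr20:36951659-36951958, minus strand: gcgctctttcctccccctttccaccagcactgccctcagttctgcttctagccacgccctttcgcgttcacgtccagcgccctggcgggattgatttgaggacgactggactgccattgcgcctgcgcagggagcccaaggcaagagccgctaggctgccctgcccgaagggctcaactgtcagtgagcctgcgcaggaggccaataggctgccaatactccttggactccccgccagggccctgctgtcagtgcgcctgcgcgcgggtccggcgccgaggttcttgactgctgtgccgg

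The IFIH1 window held 4 matches to the IRF core, which overlap in pairs, and 3 to the longer element, with the longer element starting at -159, -153 and -21 relative to the start. RIGI held 3 IRF core matches, starting at -202, -143 and -136, and none to the longer element, and SAMHD1 held none. Promoters were in the table for 6 of the 10 genes, and TBK1, MAVS and TREX1 held no match either. Matches to GAS were absent from all 6. Among 35116 RefSeq promoters of this length 22.8% held the IRF core, 3.57% the longer element and 7.66% GAS. In the list of genes induced by IRF3 or interferon, 25 of 26 promoters held the core and 20 the longer element. A match of letters is a description and does not show a bound site.

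IFIH1 (ENSG00000115267, chromosome 2, 162267079 to 162318703, minus strand) read 16.2, 18.8 and 17.5 CPM in the Parental libraries, with 15.2, 13.7 and 15.3 in those of rABS. The values were 14.7, 12.4 and 14.3 CPM in shCtrl and 18.7, 17.2 and 20.9 in shAPE1. All shAPE1 libraries were above all shCtrl and rABS libraries, and they overlapped with Parental. The rise between shCtrl and shAPE1 was log2 0.46 ± 0.11 (1.37-fold, adjusted p = 0.00151). Between rABS and Parental the difference was -0.25 ± 0.11 with no overlap, short of the threshold (adjusted p = 0.056), and shCtrl was lower than Parental by the test (log2 -0.35, adjusted p = 0.00965). In the order shCtrl, rABS, Parental, shAPE1, no pair of neighbours was called.

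RIGI (ENSG00000107201, chromosome 9, 32455705 to 32526324, minus strand) was the flattest of the 9. Parental libraries read 24.2, 31.8 and 30.5 CPM, rABS libraries 31.6, 28.9 and 32.7, shCtrl libraries 32.4, 25.5 and 25.5, and shAPE1 libraries 31.5, 25.9 and 32.3. The ranges of all 4 groups overlapped, and RIGI was not called in any of the 6 pairs of groups. The 95% interval of its log2 difference was -0.12 to 0.34 for shAPE1 against shCtrl (adjusted p = 0.498) and -0.13 to 0.33 for rABS against Parental (adjusted p = 0.446).

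MAVS (ENSG00000088888, chromosome 20, 3846799 to 3876123, plus strand), the adaptor shared by both RNA sensors, had 18322 counts over the Parental libraries and had the smallest standard errors of the 9. Its values were 352, 361 and 326 CPM for Parental, 378, 368 and 372 for rABS, and 379, 407 and 395 for shCtrl. In shAPE1 they were 545, 581 and 543 CPM, above the other 9 libraries. MAVS rose between shCtrl and shAPE1 by log2 0.50 ± 0.06 (1.41-fold, adjusted p = 1.29e-07). Between rABS and Parental the groups did not overlap, but the difference was small (log2 0.11, 95% interval -0.02 to 0.24, adjusted p = 0.152). The step from shCtrl to shAPE1 was the one step between neighbours in the order that passed, and shCtrl was above Parental, 2 places down in that order (log2 0.18, adjusted p = 0.0147).

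**Figure D3:**
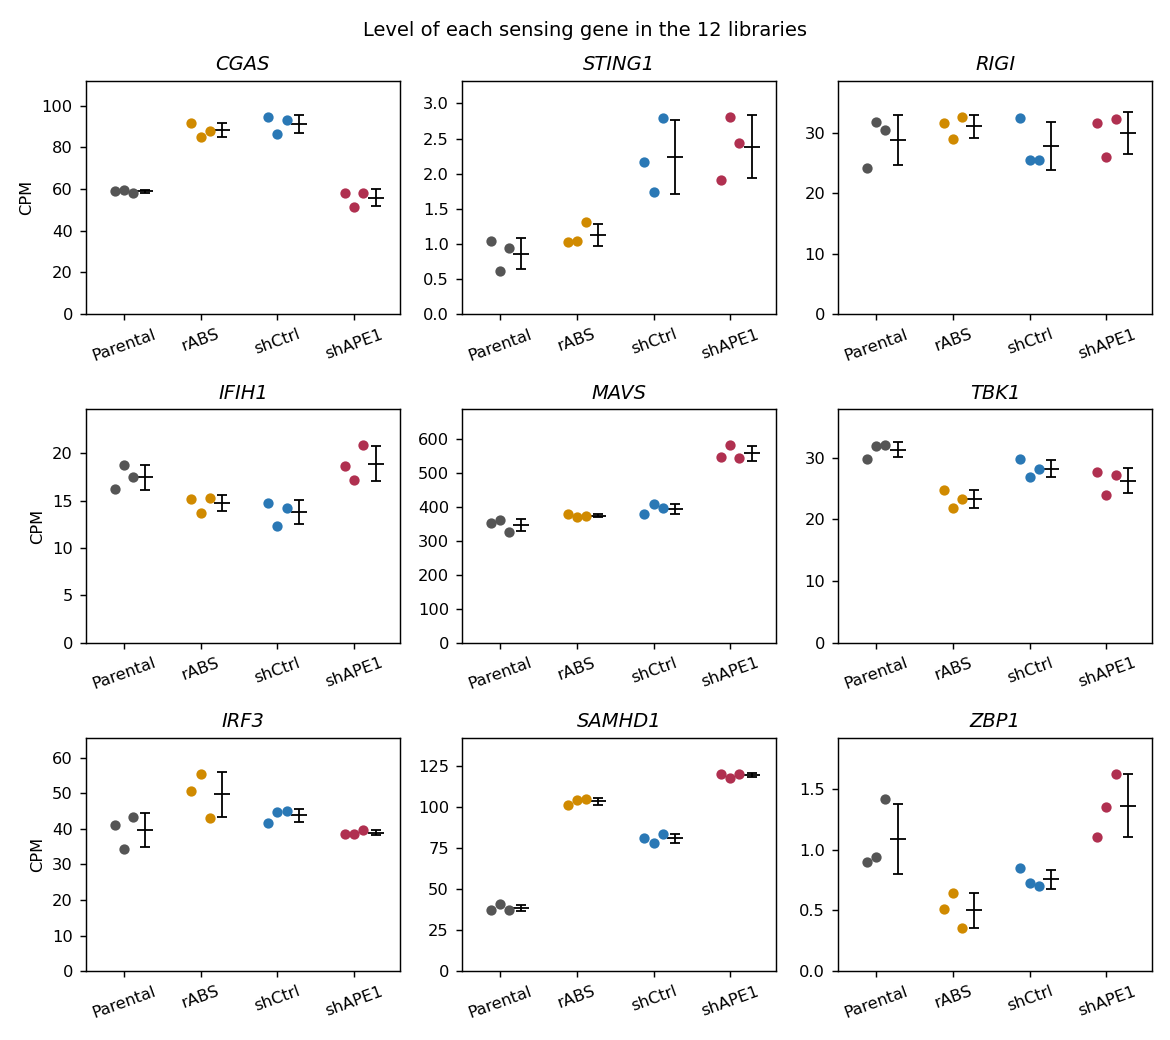
Level (CPM) of the 9 measured sensing genes in the 12 libraries, by group. Points are libraries, and the bar beside them gives the mean and SD of 3. MAVS is raised in the 3 shAPE1 libraries (543 to 581 CPM), CGAS in rABS and shCtrl, and SAMHD1 in all groups but Parental, while RIGI overlaps in all 4.

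TBK1 (ENSG00000183735, chromosome 12, 64451880 to 64502108, plus strand) encodes the kinase that phosphorylates IRF3 downstream of STING and MAVS. Parental cells were at 29.9, 32.0 and 32.1 CPM, rABS cells at 24.8, 21.9 and 23.4, shCtrl cells at 29.7, 26.9 and 28.1, and shAPE1 cells at 27.7, 24.0 and 27.3. All 3 rABS libraries were below all Parental and shCtrl libraries and overlapped with shAPE1. TBK1 fell by 0.42 ± 0.10 on the log2 scale between Parental and rABS (1.34-fold, adjusted p = 0.000254). It was higher in shCtrl than in rABS by 0.27 ± 0.10 (adjusted p = 0.0225), a call that was lost without the second rABS library (adjusted p = 0.113), the third rABS library (0.0562), the first shCtrl library (0.0949) or the third shCtrl library (0.0574). Between shAPE1 and shCtrl the difference was -0.10 (95% interval -0.29 to 0.09, adjusted p = 0.443). An antisense gene on the opposite strand covers 14.7% of the exon bases of TBK1, and the strand setting of the counting is not given in the sources used here.

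IRF3 (ENSG00000126456, chromosome 19, 49659569 to 49665875, minus strand) encodes the transcription factor on which both routes converge. Its Parental values were 41.2, 34.3 and 43.4 CPM, those of rABS 50.7, 55.6 and 42.9, and the lowest rABS library fell inside the Parental range. In shCtrl the values were 41.6, 44.7 and 45.1 CPM, and in shAPE1 38.5, 38.6 and 39.7. IRF3 was higher in rABS than in Parental by log2 0.33 ± 0.10 (1.26-fold, adjusted p = 0.00368). The exact permutation test of this difference gave 0.2, above the smallest possible p of 0.1. The difference of shAPE1 from shCtrl was -0.17 (95% interval -0.36 to 0.02, adjusted p = 0.174), without overlap, and against rABS shAPE1 was lower by the test (log2 -0.35, adjusted p = 0.00275). BCL2L12 on the opposite strand covers 19.3% of the IRF3 exon bases, and its mean was 25.8 CPM in Parental and 37.6 in rABS, so it moved in the same direction, and its part in the IRF3 counts was not tested.

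SAMHD1 (ENSG00000101347, chromosome 20, 36889773 to 36951901, minus strand), the deoxynucleotide hydrolase, had the widest range of the well-measured genes. Parental cells were at 37.2, 40.9 and 37.4 CPM, with rABS cells at 101, 104 and 105. The values were 81.1, 78.4 and 83.6 CPM in shCtrl and 120, 118 and 120 in shAPE1. No 2 groups overlapped, and each step in the order Parental, shCtrl, rABS, shAPE1 passed the test (adjusted p = 4.28e-14, 0.000127 and 0.0123). SAMHD1 rose by log2 1.43 ± 0.07 between Parental and rABS (2.69-fold, adjusted p = 1.94e-17), which ranked 1669 of 15805 genes by size. It fell by 0.35 ± 0.07 on the log2 scale between rABS and shCtrl (1.28-fold), and it was higher in shAPE1 than in shCtrl by 0.56 ± 0.07 (1.48-fold, adjusted p = 6.76e-08). The increase of shAPE1 over rABS cells without a vector was smaller in size, log2 0.21 ± 0.07. TLDC2 on the opposite strand covers 10.3% of the SAMHD1 exon bases. Its means were 0.482, 0.405, 0.457 and 1.53 CPM in Parental, rABS, shCtrl and shAPE1, and its part in the SAMHD1 counts was not tested.

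TREX1 (ENSG00000213689, chromosome 3, 48465811 to 48467645, plus strand), the main cytosolic DNA exonuclease, was listed at 0 in all 12 libraries, and no level is given for it. All 1515 of its exon bases in GENCODE 29 are shared with ATRIP on the same strand. Such rows were often empty in this table: 145 of 233 protein-coding genes with every exon base shared on the same strand had no count (62.2%), against 1899 of 11048 with no shared base (17.2%). With every exon base shared on the opposite strand it was 13 of 18 (72.2%), and with part shared 528 of 8438 (6.3%). The part of this overlap in the TREX1 zeros was not tested. ATRIP itself had 13, 80, 51 and 33 counts in total over the Parental, rABS, shCtrl and shAPE1 libraries.

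ZBP1 (ENSG00000124256, chromosome 20, 57603846 to 57620576, minus strand), the Z-nucleic acid sensor, had the lowest length-scaled level of the 9 in Parental, rABS, shCtrl and shAPE1 alike, with 57, 27, 47 and 72 counts over the libraries of these groups. Parental libraries read 0.900, 0.936 and 1.42 CPM, rABS libraries 0.512, 0.640 and 0.353, shCtrl libraries 0.845, 0.721 and 0.697, and shAPE1 libraries 1.10, 1.35 and 1.62. The rABS libraries were below all others, and the shAPE1 libraries were above shCtrl and overlapped with Parental. ZBP1 was lower in rABS than in Parental by log2 -1.11 ± 0.43 (2.16-fold, adjusted p = 0.0253). At these counts the call was lost without the third Parental (log2 -0.87, adjusted p = 0.134), the first rABS (adjusted p = 0.053) or the third rABS library (log2 -0.90, adjusted p = 0.116). The difference of shAPE1 from shCtrl was 0.84 with a 95% interval from 0.05 to 1.63, not called after adjustment (adjusted p = 0.0898), and against rABS without a vector it was 1.43 (adjusted p = 0.00486).

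The other steps of the pathway were read from 8 lists of genes placed by role. In rABS against Parental, the partners of DNA sensing and STING had 7 of 17 tested genes higher and 4 lower. Of all genes tested in this comparison, 29.9% were called higher and 29.9% lower. IFI16, a nuclear DNA sensor that works with STING, fell from 65.2 ± 3.64 to 14.4 ± 1.41 CPM (SD, n = 3, log2 -2.18, adjusted p = 4.51e-18), and SLC19A1, a folate carrier that also imports cyclic dinucleotides, rose from 20.7 ± 3.21 to 85.2 ± 5.94 CPM. RNA sensing and MAVS partners had 5 of 18 higher and 4 lower, with DHX9, an RNA helicase, up by 1.91 and RIOK3, a kinase known to act on MDA5, down by 2.61 on the log2 scale. In the kinase and adaptor list 7 of 17 were higher, IKBKE (log2 1.22), the closest relative of TBK1, among them, and 6 were lower.

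Nucleases and editors had 8 of 15 genes higher and 5 lower in that comparison, beside 29.9% and 29.9% of all genes. RNASEH2A and RNASEH2C, subunits of the RNase H2 complex mutated like SAMHD1 and TREX1 in Aicardi-Goutières syndrome, rose by log2 1.37 and 1.77, and DNASE2, the lysosomal DNase, fell by 1.30 on the log2 scale. Of the ZBP1 partners 4 of 9 were higher and 2 lower, and MLKL, the executor of necroptosis, rose from 10.0 ± 0.39 to 29.4 ± 0.80 CPM while ZBP1 was lower. Interferon receptor and JAK-STAT genes had 2 of 14 higher and 8 lower, with a median log2 difference of -0.39, including IL10RB (-1.63), IRF1 (-1.44), IFNAR2 (-1.004) and JAK1 (-0.64). Genes induced by IRF3 or interferon had 13 of 28 higher and 5 lower, with a median of 0.42. IFI27 rose by 2.89 and ISG20, an exonuclease, fell by 1.45 on the log2 scale.

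In shAPE1 against shCtrl the induced genes were called in 1 direction, 21 of 28 higher and none lower, 13 of them at 2-fold or more. Of all genes tested, 17.8% were called higher, 18.8% lower and 4.42% at 2-fold or more in either direction. The median of the induced genes was 0.93 against -0.02 for all genes. The chemokine CCL5 rose from 0.949 ± 0.09 to 7.18 ± 0.09 CPM (SD, n = 3, 7.55-fold, adjusted p = 1.57e-10), IFIT3 from 11.8 to 25.8, SAMD9L from 15.6 to 32.9 and OAS1 from 33.5 to 56.9 CPM. In Parental and rABS the means were 0.290 and 0.905 CPM for CCL5 and 9.7 and 10.2 for IFIT3. For SAMD9L they were 11.3 and 16.6 CPM, and for OAS1 55.3 and 49.1. In shAPE1 against rABS without a vector, 17 of the 28 induced genes were higher and 2 lower, with a median of 0.61. Of all genes tested there, 23.8% were called higher and 26.2% lower. In shAPE1 against shCtrl 3 of the 9 sensing genes were higher, with a median of 0.11. The difference between the sensing and the induced list was not tested. RNA sensing partners had 7 of 18 higher and 2 lower, with the helicase DDX60 up by log2 0.74, the endosomal RNA receptor TLR3 up by 0.87 and DHX9 down by 0.44. DNA sensing partners had 5 of 17 higher and 1 lower, including IFI16 (0.77) and ZCCHC3 (0.66), a cofactor of cGAS.

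Downstream factors were mixed in shAPE1 against shCtrl, where 17.8% of all genes were called higher and 18.8% lower. The kinase and adaptor list had 3 of 17 higher and 4 lower, with IRF7 up by log2 0.62 and CYLD down by 0.45, and 4 called instead of 7 without the second shAPE1 library. Nucleases and editors had 3 of 15 higher and 6 lower: DNASE1L1 rose by 0.84, and RNASEH2A fell by 0.71 and LSM11, a histone pre-mRNA processing factor, by 0.86. ZBP1 partners had none of 9 higher and 2 lower, namely ADAR (log2 -0.31), the editor that masks self RNA from MDA5, and RIPK1 (log2 -0.42). JAK-STAT genes had 4 of 14 higher and 5 lower, and among them STAT2 and IRF1 rose by 0.40 and 0.65.

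**Figure D4:**
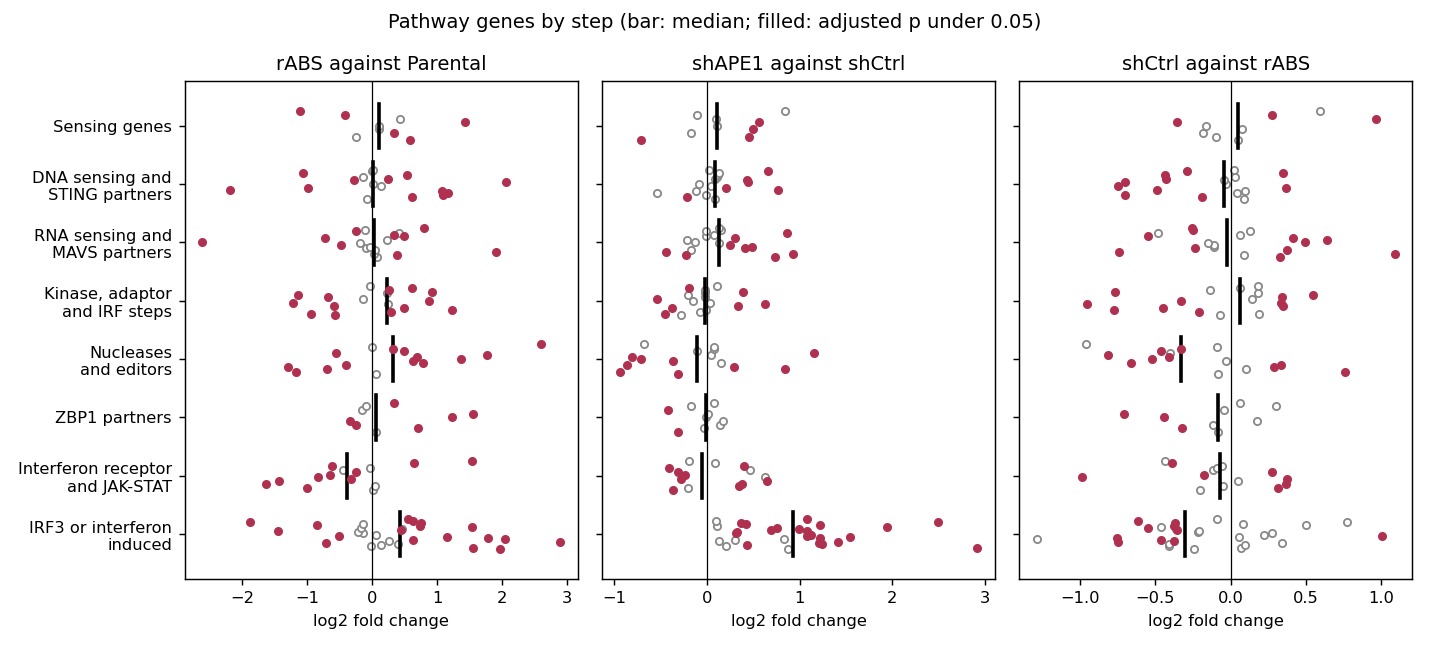
Log2 difference of each tested gene by step of the pathway in 3 comparisons. Points are genes, filled where the adjusted p was under 0.05, and bars are list medians. The induced genes in shAPE1 against shCtrl have a median of 0.93, while the 9 sensing genes have 0.11. The horizontal scale differs between panels.

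In shCtrl against rABS the DNA sensing partners had 2 of 17 higher and 8 lower, among them DDX41 (log2 -0.70), a helicase described as a DNA sensor, and PQBP1 (-0.75), a cofactor of cGAS. Of all genes tested in this comparison, 17.9% were called higher and 18.6% lower. RNA sensing partners had 6 of 18 higher and 5 lower, the kinase list 4 of 17 and 6, and nucleases 3 of 15 and 6. ZBP1 partners had none higher and 3 of 9 lower, with MLKL at log2 -0.71, and 1 was called without the second rABS library. The JAK-STAT list had 4 of 14 higher and 3 lower, and 4 in all without the first rABS library. The induced genes had 1 of 28 higher, IFIT2 (log2 1.00), and 9 lower, OAS1 (-0.55) and SAMD9 (-0.62) among them. Without the second shCtrl library 6 of the induced genes were called in all.

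No gene of the interferon list had enough counts for a test. Of 11 interferon genes, 6 had no count in any library (IFNB1, IFNL2, IFNL4, IFNA2, IFNA5 and IFNG), which over 223605358 counts in all allows a level of up to 0.0134 CPM by a floor of 3 counts, for counting error alone. This limit pools the 12 libraries, and the limit within a single group is higher. The other 5 had at most 4 counts in a library. IFNL1, a type III interferon, had 2, 3 and 2 counts in the shAPE1 libraries and 1 count each in 1 rABS and 1 shCtrl library. IFNL3 had 2 and 1 counts in 2 of the shAPE1 libraries and 1 count in 1 shCtrl library. The other 3 genes had more counts in shCtrl: IFNA1 had 1, 3 and 0 there and IFNK 2, 4 and 0, with none in the other groups. IFNE had 0, 3 and 4 counts in shCtrl, 1 in a shAPE1 library, 1 in a rABS library and 4 in a Parental library. Summed over the list, the groups held 4 counts in Parental, 2 in rABS, 19 in shCtrl and 11 in shAPE1. These counts are too few for the test, and no fold is given for them.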

How the data were processed

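The 10 genes and the lists of pathway genes were chosen with earlier results of these data known. The authors deposited raw counts per Ensembl gene. Per the submitters' processing notes, the tools were Trimmomatic 0.36, STAR 2.5.2b and featureCounts of Subread 1.5.2, with GRCh38. Strandedness, the annotation release and the treatment of multimapping reads were not given in the sources used here.

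Genes were kept with filterByExpr of edgeR 4.0.16 over the 4 groups (minimum count 10, minimum total 15). Libraries were scaled with TMM, and all 12 libraries entered 1 quasi-likelihood fit (robust, 1 coefficient for each group) in R 4.3.3 with limma 3.58.1. P-values were adjusted over all 15805 genes tested. For likeness, log2 CPM used a prior count of 2. Positions and exon lengths are from GENCODE 29, promoters from RefSeq. The procedure was tested on simulated data with far fewer changed genes than here and the same spread setting for every gene. Changes in genes below 1 CPM were not simulated. List genes were named from the 4 or fewer with the smallest adjusted p per comparison, among those called at 1 CPM or more in a group. Alternatives were other scalings, filters, DESeq2 1.42.0, limma-voom, a fit of the compared groups alone, vector-free rABS as control, a block for replicate number, and omission of each library.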

Additional observations from a re-analysis of the deposited data

How the results depend on the processing

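Under 20 alternatives for each comparison, CGAS, IRF3, SAMHD1 and TBK1 stayed called with the same sign in rABS against Parental, and so did CGAS, IFIH1, MAVS and SAMHD1 in shAPE1 against shCtrl and SAMHD1 in shCtrl against rABS. Leaving out 1 library at a time gave 4 to 5 sensing genes called in rABS against Parental and 4 to 4 in shAPE1 against shCtrl. It gave 1 to 3 in shCtrl against rABS, the lowest value without the third shCtrl library. Over all genes tested, 8875 to 9692, 4779 to 5981 and 4650 to 6066 were called in the same order of comparisons. ZBP1 in rABS against Parental was not called by DESeq2 (adjusted p = 0.0588) or with no filter on low counts (0.0706), and TBK1 in shCtrl against rABS was not called with no filter (0.0615). IFIH1 in rABS against Parental was called with a filter of 1 CPM (0.0467), and IRF3 in shCtrl against rABS without the third rABS library (log2 -0.28, 0.0273). The log2 difference of STING1 between shAPE1 and shCtrl turned to -0.062 without the second shCtrl library and to -0.038 without the second shAPE1 library, and leaving out single libraries took it up to 0.288. With vector-free rABS cells as the control of the knockdown, TBK1 turned to 0.173 and RIGI to -0.056, neither called, and STING1, IRF3 and ZBP1 were called. The cause was not tested for any of these. STING1 and ZBP1, with 27 to 138 counts per group, are limited by depth.

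Same-numbered libraries did not deviate together (correlation of deviations between -0.167 and 0.067), so the numbers were not taken to pair samples. With the replicate block, 5, 4 and 3 sensing genes were called, as without it, and 9266, 5485 and 5457 genes in all.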

Other observations

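SAMHD1 and ZBP1, the sensing genes called at 2-fold or more in rABS against Parental, were set beside the genes most like them over the 12 libraries, among 10511 genes with a mean of at least 5 CPM. The profile of SAMHD1 was nearest to PDCD11 (Pearson r of log2 CPM 0.992), HPGD (0.991), which inactivates prostaglandins, and the cytokine IL32 (0.991). That of ZBP1 was nearest to EPB41 (0.930), SRPX2 (0.927) and FAM220A (0.922). The 12 libraries share 4 groups, so these values describe the group pattern and carry no test.

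Genes lying next to the sensing genes on their chromosomes were also counted, 10 tested genes on either side, a window chosen after the data were seen. The comparisons given are those in which the sensing gene itself was called. Over all tested genes, 29.9% were called higher and 29.9% lower in rABS against Parental. These shares were 17.8% and 18.8% in shAPE1 against shCtrl, and 17.9% and 18.6% in shCtrl against rABS. Around CGAS on chromosome 6, 3 of 20 neighbours were higher and 10 lower in rABS against Parental (median log2 -0.25, CGAS at 0.58), and 1 was higher and 6 lower in shAPE1 against shCtrl (median -0.21, CGAS at -0.71). Around MAVS on chromosome 20, 3 were higher and 4 lower in shAPE1 against shCtrl (median 0.01, MAVS at 0.50). SAMHD1, on the same chromosome, had 10 neighbours higher and 4 lower in rABS against Parental (median 0.33, SAMHD1 at 1.43). In shAPE1 against shCtrl 6 of them were higher and 5 lower (median -0.08, SAMHD1 at 0.56), and in shCtrl against rABS 2 were higher and 11 lower (median -0.20, SAMHD1 at -0.35). ZBP1, also on chromosome 20, was at -1.11 in rABS against Parental, where 10 of its neighbours were higher and 6 lower (median 0.33). For TBK1 the neighbours' median was -0.23 in rABS against Parental (5 higher, 8 lower, TBK1 at -0.42). In shCtrl against rABS it was 0.24 (7 higher, 2 lower, TBK1 at 0.27). The neighbours' median was 0.30 for IRF3 in rABS against Parental (10 higher, 3 lower, IRF3 at 0.33). For IFIH1 in shAPE1 against shCtrl it was -0.04 (3 higher, 3 lower, IFIH1 at 0.46). For STING1 in shCtrl against rABS it was 0.14 (3 higher, none lower, STING1 at 0.97).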
